A study of Homo sapiens with 2 samples.

Results

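Keratins and the other intermediate filament genes were described in D407 cells, a human line that the labels call adult retinal pigment epithelium (RPE). A gene was included if its symbol was KRT followed by a number and at most 1 letter, or if it was VIM, DES, GFAP, NES, INA, NEFL, NEFM, NEFH, PRPH, SYNM, LMNA, LMNB1 or LMNB2. This gave 68 of the 37364 listed genes, namely 55 keratins and 13 others. There were 2 poly(A)-enriched RNA libraries: 1 from D407 cells given clusterin, an extracellular chaperone protein, and 1 from D407 cells labelled as control. The labels describe the same serum-containing medium for both, and name neither a dose, a time nor what the control cells received. The labels state an interest in long non-coding RNAs linked to clusterin in RPE cells. With 1 library per group, no difference had a replicate check and no test between the groups was made.

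Intermediate filaments are the rope-like part of the cytoskeleton. Keratin filaments are built from obligate pairs of a type I (acidic) and a type II (basic) chain, and each epithelium is known by the pairs it makes: KRT8 and KRT18 with KRT7 and KRT19 in simple, single-layered epithelia, KRT5 and KRT14 in the basal layer of stratified epithelia, and other pairs in the upper layers, the hair and the nail. Vimentin is the filament of mesenchymal and many cultured cells, neurofilaments belong to neurons, and lamins line the inner face of the nuclear envelope. RPE cells are epithelial and are known to make KRT8 and KRT18, and to gain vimentin and other keratins in culture.

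Levels are in RPKM, reads scaled to transcript length and to the library's total, so levels of different genes can be set side by side. The reads behind them were recovered from the deposited values, at library totals of 33177078 for clusterin and 38236987 for control. They were found for all 24 filament genes listed above 0. No gene in the table had a recovered total under 6 reads, and RPS18, a ribosomal protein gene, was listed at 0, so a gene at 0 is reported only as listed at 0. Of 10 RPE markers, 5 were listed at 0 in both libraries (RPE65, RLBP1, LRAT, TTR and TYR) and 2, MITF and BEST1, reached a mean of 1 RPKM; the 10 summed to 13.5 RPKM in the clusterin library and 13.9 in control. The cells are called here by the name of the line. All 6 markers of squamous keratinocytes were listed at 0, while the 5 leukocyte, 4 endothelial and 5 neuronal and glial markers summed to at most 1.09 RPKM in the clusterin library and at most 1.02 in control.

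Most filament genes were listed at 0. Of the 68, 44 were listed at 0 in both libraries, 10 were above 0 with a mean under 1 RPKM, and 14 reached a mean of 1 RPKM. Over all genes in the table, 55.2% were listed above 0 and 35.4% reached that mean. The 14 were the keratins KRT7, KRT18, KRT8, KRT19, KRT17, KRT10 and KRT80, the type III gene VIM, the type IV genes SYNM, NES and NEFH, and all 3 lamins. All 9 keratins of the inner root sheath and companion layer of the hair follicle were listed at 0, as were 13 of 17 hair and nail keratins, 11 of 14 suprabasal, mucosal and corneal keratins and 5 of 8 basal and activated keratinocyte keratins. Of the 7 simple epithelial keratins, 5 reached 1 RPKM, and KRT20 and KRT23 were listed at 0. KRT6A, KRT6B and KRT6C are near-identical copies, as are several hair keratins, and how the counting split shared reads is not known, so values of single copies are uncertain.

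**Figure D1:**
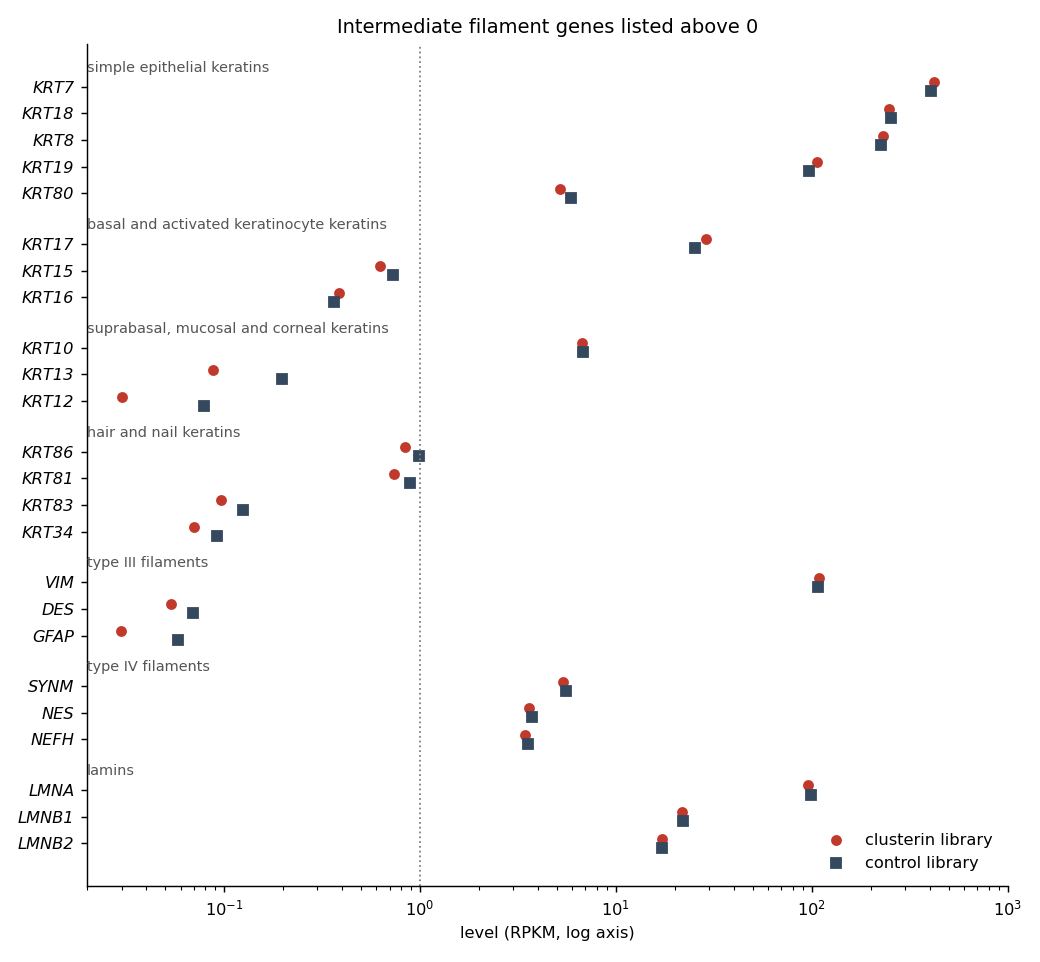
Level in RPKM (log axis) of each of the 24 filament genes listed above 0, with a circle for the clusterin library and a square for the control library; genes are grouped by class and the dotted line marks 1 RPKM. The points of the 14 genes above the line nearly coincide, from KRT7 at 419.5 and 407 RPKM to NEFH at 3.44 and 3.56 RPKM, and the points of the lowest genes, which rest on 8 to 18 reads, lie further apart.

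The keratin genes sit in 2 clusters, and those listed above 0 were not spread evenly along them. The type II cluster (chromosome 12, 52168996 to 52952901, GRCh38) held 27 listed keratins, KRT18 included, a type I gene that lies at its end beside KRT8. In chromosomal order, KRT80, KRT7, KRT86, KRT81 and KRT83 at one end and KRT8 and KRT18 at the other were listed above 0. The 20 keratins between KRT83 and KRT8, from KRT85 to KRT78, were an unbroken run at 0 in both libraries. The type I cluster (chromosome 17, 40655620 to 41624630, GRCh38) held 28 keratins, of which 8 were above 0 in 4 separate places, and 3 runs of 6 keratins at 0 (KRT222 to KRT28, KRT20 to KRT33B and KRT31 to KRT36) were its longest. None of the 33 keratin-associated protein genes inside the type I cluster by deposited position was listed above 0.

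**Figure D2:**
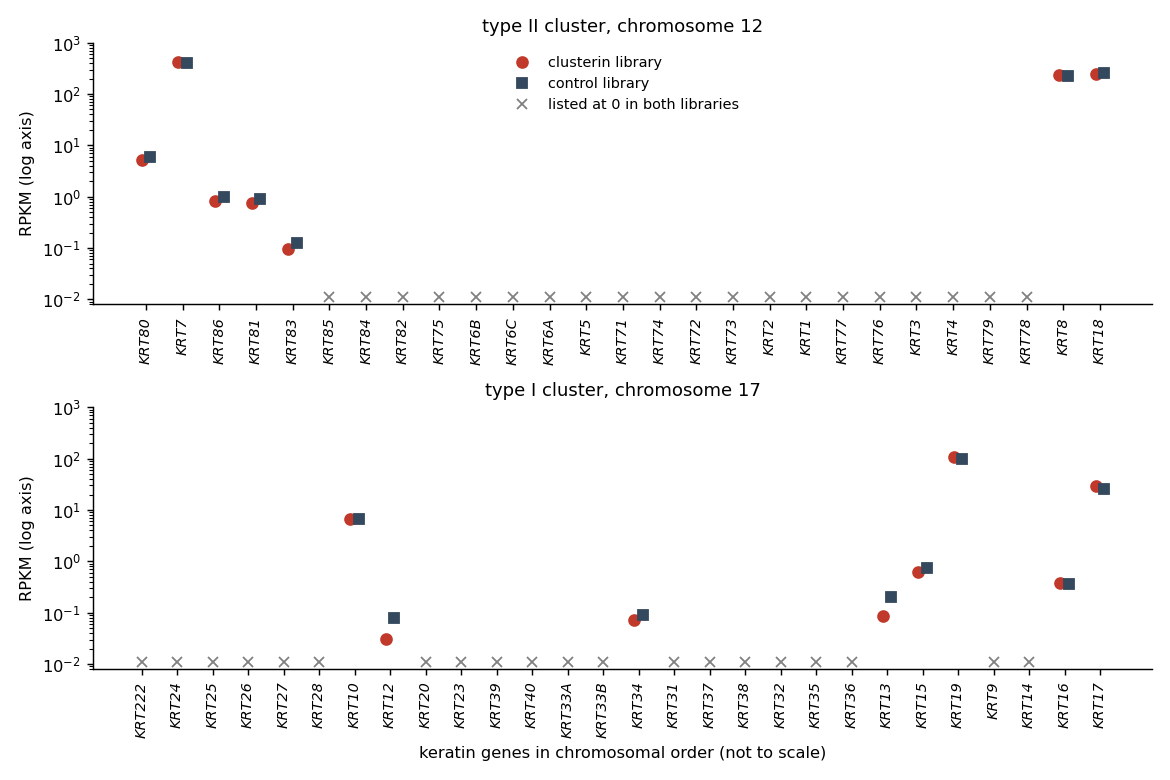
Level in RPKM (log axis) of the 55 keratin genes in chromosomal order, not to scale, with the type II cluster above and the type I cluster below; circles are the clusterin library, squares the control library and crosses genes listed at 0 in both. The upper panel shows levels at both ends with 20 crosses between them, and the lower panel shows 8 genes above 0 among 20 crosses.

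Promoter sequence was looked at because it is a feature the choice of genes did not use. RefSeq windows of 300 bases on GRCh38.p14 (250 before to 50 after the start) matched 42 of the 68 genes, 34 of them keratins. KRT7, KRT18, KRT19, KRT17 and KRT80, which averaged 1 RPKM or more, had no window. The start is the one listed for the window, and for some genes it lies inside the deposited gene. The KRT8 window (chromosome 12, 52926420 to 52926719) does so, as the deposited gene starts at 52949866 on the minus strand. Only the first listed window of a gene was used, and for KRT40 it holds TATAAA while the others hold none. A TATA box is a short promoter element that positions the start of transcription of many tissue-specific genes, and promoters rich in CpG are typical of genes used in most cells. The letters TATAAA were found on either strand in 61.8% of the keratin windows (21 of 34), against 11.5% of all 35116 windows. On the gene's own strand they stood in 19 keratin windows (55.9%, against 7.33% of all windows). In 16 of these they began 27 to 31 bases before the listed start, and 1.81% of all windows hold them there. On that strand, KRT10 and KRT34 held it among the 4 keratins above 0 with a window, and 17 of the 30 keratins listed at 0 with a window did, KRT31 among them. The 8 filament genes averaging 1 RPKM or more that had a window had a median observed to expected CpG ratio of 0.641, against 0.140 for the 30 keratins listed at 0 and 0.579 for all windows. The 8 were KRT8, KRT10, VIM, SYNM, NES and the 3 lamins; the 4 keratins above 0 with a window (KRT8, KRT10, KRT12 and KRT34) had a median of 0.103. These 3 windows are shown because they hold both kinds of promoter and both states; capitals mark TATAAA and every CG, 5′ to 3′ on the gene's strand, and the order is KRT10 (chr17:40822565-40822864, minus strand), KRT31 (chr17:41397559-41397858, minus strand) and LMNB2 (chr19:2456910-2457209, minus strand).
KRT10: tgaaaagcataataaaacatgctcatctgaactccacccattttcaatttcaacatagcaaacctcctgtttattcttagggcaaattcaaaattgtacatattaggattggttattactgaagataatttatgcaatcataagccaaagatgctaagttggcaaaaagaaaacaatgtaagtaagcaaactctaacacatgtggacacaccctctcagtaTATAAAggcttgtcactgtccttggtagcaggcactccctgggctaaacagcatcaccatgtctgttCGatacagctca
KRT31: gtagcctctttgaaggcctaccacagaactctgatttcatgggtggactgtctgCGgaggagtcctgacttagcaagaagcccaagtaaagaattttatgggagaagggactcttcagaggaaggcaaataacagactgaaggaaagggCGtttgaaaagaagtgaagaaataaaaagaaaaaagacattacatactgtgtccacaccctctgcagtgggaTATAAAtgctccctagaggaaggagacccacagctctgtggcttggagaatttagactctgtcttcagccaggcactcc
LMNB2: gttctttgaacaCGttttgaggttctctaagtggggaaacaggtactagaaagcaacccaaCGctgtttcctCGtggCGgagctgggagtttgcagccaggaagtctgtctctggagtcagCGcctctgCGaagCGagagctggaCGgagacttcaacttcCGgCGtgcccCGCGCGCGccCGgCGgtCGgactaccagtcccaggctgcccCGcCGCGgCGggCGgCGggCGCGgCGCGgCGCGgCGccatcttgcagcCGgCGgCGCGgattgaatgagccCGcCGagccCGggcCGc
KRT10 and KRT31 carry TATAAA 29 bases before the start, with 1 and 2 CG, and LMNB2 carries 38 CG and no TATAAA.

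The simple epithelial keratins made up most of the filament transcripts. Together they held 77.4% of the summed RPKM of the 68 genes in the clusterin library and 77.0% in control. KRT7, a type II keratin of glandular and ductal epithelia, was the highest filament gene, with 32.2% of the sum in the clusterin library and 31.6% in control, and stood at rank 141 of all listed genes with clusterin and 145 in control. In the clusterin library KRT18 held 18.9%, its usual partner KRT8 17.7% and KRT19, the smallest keratin, 8.13%, against 19.8%, 17.6% and 7.54% in control. VIM held 8.32% in the clusterin library and 8.40% in control, so transcripts of epithelial and mesenchymal filaments stood in the same libraries. Of 8 mesenchymal markers, 4 reached a mean of 1 RPKM (VIM, CDH2, FN1 and COL1A1) and the 8 summed to 121 RPKM with clusterin and 122 in control, of which the 7 other than VIM made 12.9 RPKM with clusterin and 14.1 in control. The 6 markers of simple epithelium summed to 495 RPKM with clusterin and 499 in control, nearly all of it KRT8 and KRT18. KRT8, KRT18, CLDN7 and CLDN4 were the 4 of these 6 that reached a mean of 1 RPKM. CLDN7 stood at 16.0 RPKM with clusterin and 16.2 in control, and CLDN4 at 1.39 and 1.55 RPKM. CDH1 and EPCAM, the remaining epithelial markers, stood at 0.0250 and 0 RPKM with clusterin and at 0.0163 and 0 RPKM in control.

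**Figure D3:**
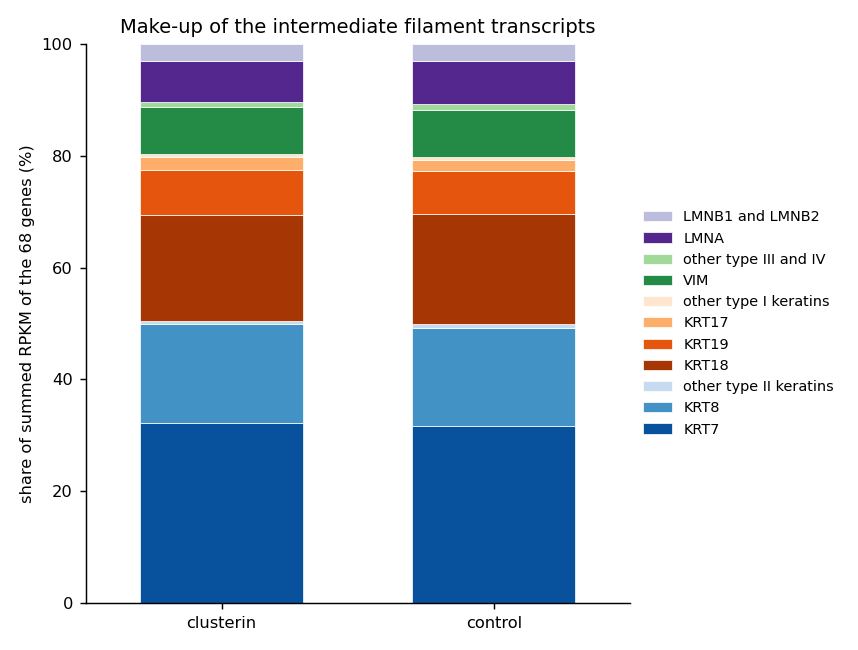
Share of the summed RPKM of the 68 genes (percent, from 0 to 100) held by each leading gene or group, with the clusterin library on the left and the control library on the right. Blue is type II keratins, orange type I keratins, green type III and IV filaments and purple lamins; the columns are alike, with KRT7 at 32.2% and 31.6%.

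Type II transcripts outnumbered their type I partners. Summed type II keratin level was 657 RPKM in the clusterin library and 641 in control, and summed type I level 389 and 385 RPKM, which gave type II to type I ratios of 1.69 and 1.66. Without KRT7 the ratio was 0.611 in the clusterin library and 0.609 in control. KRT8 and KRT18 were closer to even, with a KRT8 to KRT18 ratio of 0.936 in the clusterin library and 0.890 in control. These are ratios of transcripts, and keratin protein was not measured.

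Between the libraries, no filament gene averaging 1 RPKM or more differed by 1.5-fold. In bulk RNA, fewer cells making a transcript and less of it per cell cannot be told apart. On the scale log2((clusterin RPKM + 1)/(control RPKM + 1)), none of these 14 genes passed 1.5-fold higher, as 0.37% of all 13244 such genes did, or 1.5-fold lower, as 0.498% did (0.868% in either direction), and none passed 2-fold, as 0.219% did. Their differences ran from -0.17 for KRT80 to 0.17 for KRT17, with a median of -0.01, against a median of -0.06 over all genes. Relative to that general offset, 13 of the 14 lay above the median, where 50% of all genes do by construction, and KRT80 lay below it (11 of 14 lay above with a pseudocount of 5 RPKM or after quantile normalization); 6 of the 14 lay above 0, against 29.8% of all genes.

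Among the simple epithelial keratins, KRT7 and KRT19 were slightly higher in the clusterin library. KRT19 (chromosome 17, 41523617 to 41528389, GRCh38, minus strand) stood at 106 RPKM with clusterin and 97.0 in control, from 5167 and 5455 reads. The ratio of RPKM was 1.09 with a 95% counting interval of 1.05 to 1.13. Of the 546 genes with at least 10000 reads over both libraries, 0.183% had a higher ratio than KRT19 and the central 95% ran from 0.870 to 1.06. KRT19 lies near the lower end of that band of reads, and its ratio is within the central 95% of the 6686 genes with 1000 to 10000 reads, 0.827 to 1.12. KRT7 (chromosome 12, 52233170 to 52252667, plus strand) stood at 419.5 RPKM with clusterin and 407 in control, from 23690 and 26464 reads, a ratio of 1.03 (1.01 to 1.05), and 6.59% of the 546 genes were higher. KRT8 (chromosome 12, 52897187 to 52949866, minus strand) stood at 231 RPKM with clusterin and 226 in control, from 17354 and 19612 reads, a ratio of 1.02 (0.999 to 1.04).

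KRT18 and KRT80 went the other way by small amounts. KRT18 (chromosome 12, 52948871 to 52952901, plus strand) stood at 247 RPKM with clusterin and 254 in control, from 12566 and 14933 reads, a ratio of 0.970 (0.947 to 0.993); with the totals rescaled so that the median ratio of genes with at least 100 reads was 1, it was 1.02 (0.996 to 1.04), on the other side of 1. KRT80, a type II keratin of many epithelia linked to desmosomes, stood at 5.16 RPKM with clusterin and 5.91 in control, from 667 and 880 reads. Its ratio of 0.874 (0.789 to 0.967) was the lowest of the 14, although 10.5% of the 6686 genes with 1000 to 10000 reads lay lower still; with the totals rescaled it was 0.919 (0.830 to 1.02). The gene bodies of KRT8 and KRT18 overlap by 996 bases on opposite strands, and whether counting used the strand is not known.

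KRT17 had the largest ratio of the 14. This type I keratin, made by basal and hair follicle cells and switched on in wounded or proliferating epithelium, stood at 28.8 RPKM with clusterin and 25.5 in control, from 1505 and 1535 reads, a ratio of 1.13 (1.05 to 1.21). Of the 6686 genes in its read band, 1.88% had a higher ratio and the central 95% ran from 0.827 to 1.12. Its relatives did not share the level: KRT16, made alongside KRT17 in activated keratinocytes, was at 0.386 RPKM with clusterin and 0.366 in control, from 22 and 24 reads, and KRT15, of basal stem cells, at 0.622 and 0.725 RPKM, from 38 and 51 reads. KRT5, KRT14 and the 3 KRT6 genes, the remaining members of that class, were listed at 0. KRT10, a type I keratin of the differentiating epidermis, stood at 6.73 RPKM with clusterin and 6.77 in control, from 478 and 554 reads, a ratio of 0.994 (0.878 to 1.13), while KRT1, its epidermal partner, was listed at 0. By deposited position, TMEM99, at 1.59 RPKM with clusterin and 1.44 in control, overlaps KRT10 by 3527 bases on the opposite strand. The build of the TMEM99 position was not checked. If the overlap holds, with the strand setting not known, reads of TMEM99 and KRT10 there cannot be told apart.

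Hair keratins appeared only as a trace. KRT86 and KRT81, type II hair keratins, stood at 0.836 and 0.742 RPKM with clusterin and at 0.988 and 0.890 RPKM in control, from 137 and 112 reads over both libraries. Both counting intervals held 1. Their genes overlap by 22498 bases on opposite strands and their coding sequences are closely alike, so the split between them is uncertain. The 6 genes above 0 with under 20 reads were KRT13, KRT83, KRT34, KRT12, DES and GFAP, with 8 to 18 reads over both libraries and levels of 0.0299 to 0.0965 RPKM with clusterin and 0.0583 to 0.198 in control. All 6 were lower with clusterin, and every interval held 1. Most genes at higher levels were lower too: of all genes averaging 1 RPKM or more, 29.8% were higher with clusterin. No such share was computed for genes at the low levels of these 6.

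**Figure D4:**
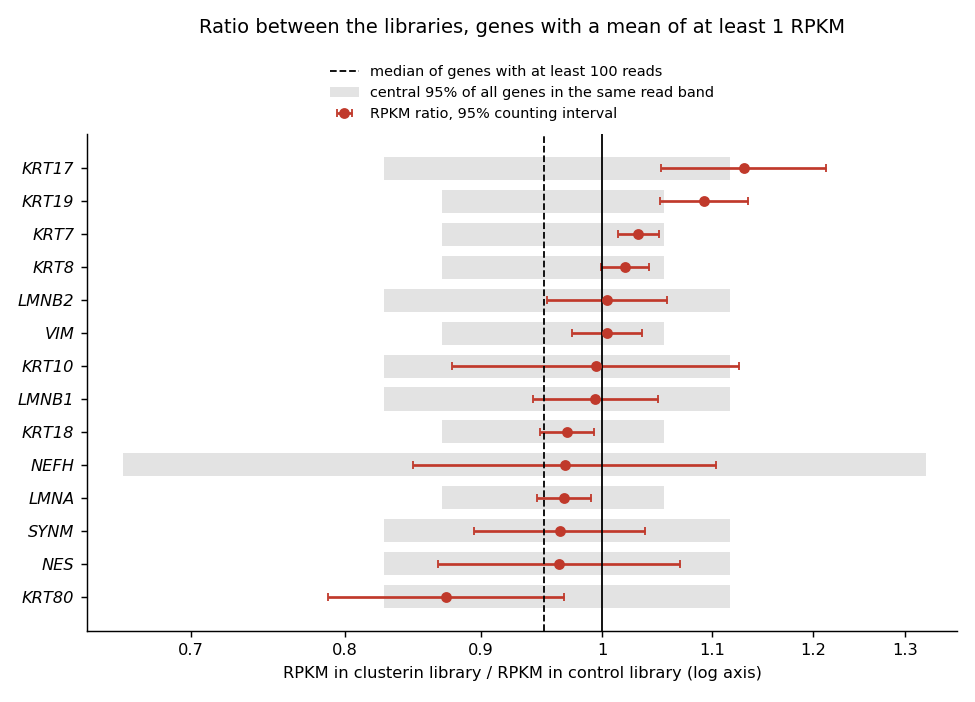
RPKM in the clusterin library over RPKM in the control library (log axis) for the 14 filament genes averaging 1 RPKM or more, as points with 95% counting intervals. Grey bars span the central 95% of all genes in the same band of reads, the solid line marks 1 and the dashed line the median of genes with at least 100 reads (0.950). KRT17 and KRT19 lie past the right end of their grey bars, and the other 12 points lie within theirs.

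The non-keratin filaments of the cytoplasm were near even. VIM, vimentin (chromosome 10, 17227935 to 17237593, plus strand), stood at 108.4 RPKM with clusterin and 107.9 in control, from 7680 and 8816 reads, a ratio of 1.004 (0.974 to 1.04). The 3 type IV genes above 0 were SYNM, synemin, which ties other filaments to adhesion sites, at 5.35 RPKM with clusterin and 5.55 in control, NES, nestin, a filament of progenitor cells, at 3.59 and 3.72 RPKM, and NEFH, the heavy neurofilament chain, at 3.44 and 3.56 RPKM. Their ratios were 0.964, 0.963 and 0.968, each with an interval that held 1, and became 1.01, 1.01 and 1.02 with the totals rescaled. NEFL, NEFM and INA, the chains with which NEFH forms neurofilaments, and PRPH were listed at 0.

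Lamin transcripts were led by the A-type gene. LMNA, which encodes lamins A and C (chromosome 1, 156082546 to 156140089, plus strand), held 71.1% of summed lamin RPKM in the clusterin library and 71.7% in control. It stood at 96.0 RPKM with clusterin and 99.3 in control, from 12835 and 15291 reads, a ratio of 0.967 (0.945 to 0.990); with the totals rescaled it was 1.02 (0.994 to 1.04). The B-type genes were close to even, LMNB1 at 21.8 RPKM with clusterin and 21.9 in control, with a ratio of 0.994 (0.941 to 1.05), and LMNB2 at 17.3 and 17.2 RPKM, with a ratio of 1.004 (0.953 to 1.06).

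In all, 3 of the 14 genes, KRT7, KRT19 and KRT17, had a counting interval above 1, as 4.3% of 13115 genes did, and 3, KRT18, KRT80 and LMNA, had one below 1, as 26% did. With the totals rescaled, 6 lay above 1 (the same 3 with KRT8, VIM and LMNB2), as 12.1% of genes did, and 0 below, as 10.1% did. In the authors' deposited table, q was below 0.05 for KRT19 (0.000270), KRT7 (0.00806) and KRT17 (0.0113), all higher with clusterin, as for 1.63% of the 20642 genes above 0, and for LMNA (0.0477), lower, as for 10.4%. Reads of the filament genes were found by a search that required the deposited p-value, so their match to it is no separate check. For 471 small RNA genes, the deposited p-value was matched within 2% by a test that counts read sampling error only. The spread of ratios over genes was wider than that error, 1.73 times for 1000 to 10000 reads and 3.12 times above 10000, so an interval without 1, or a q below 0.05, compares these libraries and not the conditions.

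Antisense genes, matched by Ensembl ID, lie beside 3 of the filament genes. KRT7-AS stood at 93.7 RPKM with clusterin and 90.1 in control, 22.3% and 22.2% of the KRT7 level, and VIM-AS1 at 63.5 and 60.2 RPKM, 58.6% and 55.8% of the VIM level. Their ratios were 1.04 (1.002 to 1.08) and 1.06 (1.01 to 1.10). SYNM-AS2 stood at 5.73 RPKM with clusterin and 5.69 in control, 107% and 102% of the SYNM level, a ratio of 1.01 (0.890 to 1.14). SYNM-AS1 stood at 2.05 RPKM with clusterin and 1.47 in control, from 40 and 33 reads, 38.3% and 26.4% of the SYNM level, a ratio of 1.40 (0.859 to 2.29). With the strand setting not known, reads of a gene and of its antisense partner cannot be told apart. Of 7 keratin pseudogenes listed, 1 was above 0, KRT16P1, with 7 reads with clusterin and 5 in control; KRT16 itself had 22 and 24.

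Genes whose products anchor filaments at the cell surface were mostly above 0; differences are on the log2 scale with 1 RPKM added. Of 19 desmosome and plakin genes, 12 reached 1 RPKM, led in level by JUP, plakoglobin, at 88.1 RPKM with clusterin and 85.9 in control. DSG1, DSG3, DSG4, DSC1 and PKP1, desmosomal genes of stratified epithelia, were the 5 listed at 0. DSC3, another such gene, and DSC2 were above 0 with a mean under 1 RPKM. None of the 12 passed 1.5-fold, 10 lay above the all-gene median and their median difference was -0.04. PKP2, a plakophilin, had the largest difference, 0.13 (3.39 RPKM with clusterin and 3.02 in control), PPL, periplakin, differed by 0.08, and PKP4 and DSG2 had the lowest differences, -0.09 and -0.06. Of 7 hemidesmosome genes, 4 reached 1 RPKM, with a median of 0.01; CD151, a tetraspanin, had the highest level, 105 RPKM with clusterin and 100.5 in control, and a difference of 0.06. LAMB3, a laminin chain, differed by 0.04 and ITGB4, the integrin that binds plectin, by -0.07.

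All 14 nuclear envelope partners of the lamins were above 0 and 12 reached 1 RPKM; 5 of the 12 lay above the all-gene median of -0.06 and 7 below it, and their median was -0.07. BANF1, which bridges DNA and the envelope and had the highest level of them, stood at 36.6 RPKM with clusterin and 41.5 in control, from 1399 and 1827 reads, a ratio of 0.883 (0.823 to 0.947). LEMD3, an inner membrane protein, stood at 7.60 RPKM with clusterin and 8.49 in control, and its ratio was 0.895 (0.830 to 0.966), while LBR, the lamin B receptor, and LEMD2 had differences of 0.03 and 0.00. Of the 11 with recovered reads, 5 had an interval below 1 and 0 above 1, against 26% and 4.3% of all genes. With the totals rescaled, a check added after seeing the data, 1 lay below 1 (BANF1) and 1 above (LBR), against 10.1% and 12.1%. Of the 6 genes that process or bind prelamins, none passed 1.5-fold and none had an interval without 1 (median -0.03); with the totals rescaled, those of NARF and FNTA lay above 1. ICMT, a methyltransferase, had the highest level, 19.1 RPKM with clusterin and 19.7 in control, NARF, a prelamin-binding protein, and FNTA differed by 0.10 and 0.08, and FNTB, which with FNTA forms the farnesyltransferase, and ZMPSTE24, the prelamin protease, by -0.10 and -0.08.

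Of 22 other filament genes and filament regulators, 20 reached 1 RPKM, with a median of -0.02 and none past 1.5-fold. SFN, a 14-3-3 protein that binds keratins in epithelial cells, had the highest level, 85.0 RPKM with clusterin and 84.0 in control. AURKB, a mitotic kinase that phosphorylates vimentin, differed by 0.15 and FAM83H, a keratin-binding scaffold, by 0.09. TCHP, trichoplein, a keratin-binding protein, stood at 4.93 RPKM with clusterin and 5.67 in control (-0.17), and BFSP1, a filament protein known from the lens, at 0.875 and 1.20 RPKM (-0.23), from 72 and 114 reads. Among 19 transcription factors known to act on keratin or epithelial genes, 5 were listed at 0, TP63 among them, and 8 reached 1 RPKM, with a median of -0.04. KLF5 had the highest level, 32.8 RPKM with clusterin and 34.1 in control. JUN and FOSL1, subunits of AP-1, differed by 0.13 each, and SNAI2 and TFAP2A had the lowest differences, -0.18 and -0.11.

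**Figure D5:**
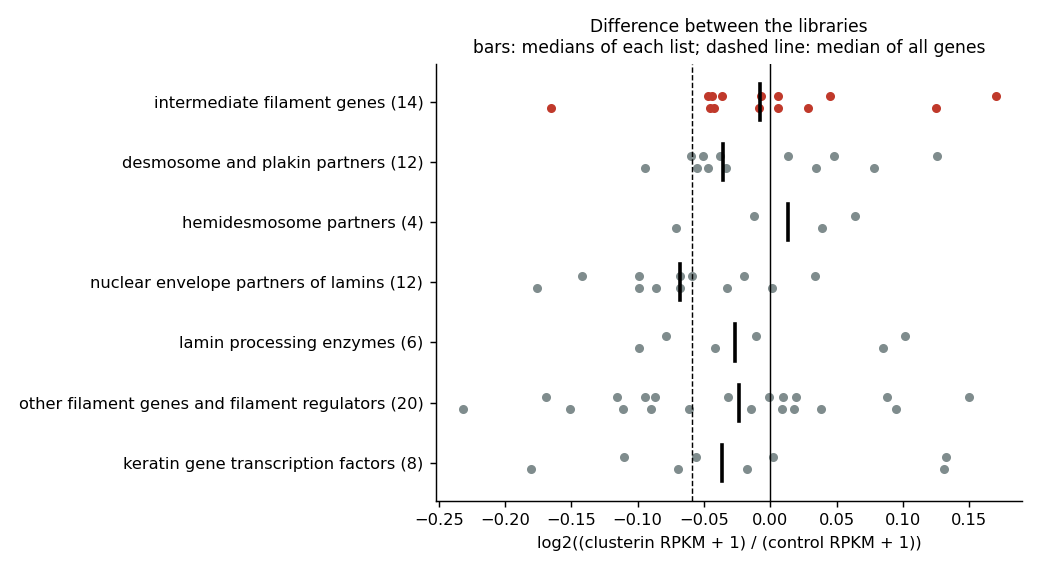
Difference log2((clusterin RPKM + 1)/(control RPKM + 1)) for the 14 filament genes (top row) and 6 lists of partner genes, 1 point per gene averaging 1 RPKM or more, and the number of genes in brackets. Black bars are medians, the solid line marks 0 and the dashed line the median of all genes (-0.06); every point lies between -0.23 and 0.17.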

How the data were processed

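RNA of D407 cells was measured in 2 libraries, 1 per group, and groups came from the labels. Per the labels' protocols, poly(A) RNA was selected, broken into fragments and primed at random. The submitters' processing notes name TopHat, Bowtie, Cuffdiff and build hg19, without versions; annotation and strand setting are not given in the sources used here. For each gene the authors deposited an RPKM level per library, and their comparison of the libraries as log2 ratio, p-value and q-value; the headers name no unit. It was read from the values: levels times length were whole within 0.02 for 477 of 523 small RNA genes at 1 total per library, and for 471 of these the deposited p-value equalled the Audic-Claverie p within 2%. Whether a read is a single read or a pair is unknown.

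For other genes, lengths of 30 to 25000 bases were searched for whole reads in both libraries (within 0.01) that gave the deposited p, and this succeeded for 99.0% of the 20642 genes above 0. The steps were checked on invented counts with known answers.

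Differences added a pseudocount of 1 RPKM and were limited to a mean of 1 RPKM or more. Ratios carry exact Clopper-Pearson 95% intervals, which cover counting error only and no spread between replicates. Reads counted without molecular identifiers may be copies of the same molecule, which would make the intervals too narrow even for counting error. Named are all filament genes with a mean of 1 RPKM or more, or with 20 reads, and of each partner list the highest gene and the 2 furthest from the all-gene median in each direction; other names were chosen after their values were seen. Members and lists were chosen with earlier results of these data known. Starts of 66 of the 68 genes lay within 2000 bp of RefSeq on GRCh38. Their coordinates, as deposited, are therefore given on that build although the notes name hg19. The build was not checked for other genes. Of promoter windows, the first listed per gene was used, and none on chromosome 8. Python 3.11.15, numpy 2.4.6, pandas 2.3.3, scipy 1.17.1 and matplotlib 3.10.9 were used. Other pseudocounts, filters and scalings are in the closing section.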

Additional observations from a re-analysis of the deposited data

How the results depend on the processing

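No filament gene passed 1.5-fold or 2-fold with a pseudocount of 0.1 or 5 RPKM, without the filter on low levels, at a mean minimum of 5 RPKM, with the control rescaled to a median of 0 or after quantile normalization. Without the filter the pseudocount stayed at 1 RPKM. At the control levels of the lowest of the 10 added genes, no decrease could then pass 1.5-fold. An increase could do so only at a plain ratio well above 1.5. Plain RPKM ratios of the 10 ran from 0.384 (KRT12, 8 reads) to 1.06 (KRT16, 46 reads), and every interval held 1. Over all genes, 115 passed 1.5-fold and 29 passed 2-fold. These counts were 302 and 76 with a pseudocount of 0.1 RPKM, and 20 and 5 with a pseudocount of 5 RPKM. A larger pseudocount draws every ratio towards 1, most of all at low levels, so the counts fall with it by construction. At a mean minimum of 5 RPKM, where fewer genes were tested, they were 26 and 7. With the authors' deposited q below 0.05 in place of a size, 4 filament genes and 2478 of all genes were called. The median difference of the filament genes ran from -0.04, over all 24 above 0 without the filter, to 0.06, with the control rescaled. Of 56 gene differences under other pseudocounts and scalings, 6 moved by more than their counting error, all with the control rescaled, as did 3 of 60 list medians, 2 of them with the control rescaled and 1 without the filter. With the totals rescaled, 6 intervals lay above 1, against 3, and 0 below 1, against 3; the ratio of KRT18 became 1.02 and that of LMNA 1.02, both across 1. Without KRT7 the type II to type I ratio was 0.611 in the clusterin library and 0.609 in control, and without the lamins the simple epithelial share was 86.4% and 86.3%; both follow from what was left out. No paired analysis was possible because each group has 1 library, and for the same reason no replicate could be left out. Depth limits the 10 genes under 1 RPKM, which had 8 to 137 reads.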

Other observations

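By deposited position, 2 genes in the keratin clusters that are neither keratins nor keratin-associated reached a mean of 1 RPKM. They were named after their values were seen. The build of their positions was not checked, so whether they lie in the clusters or overlap keratins is not known. C12orf44 stood at 37.1 RPKM with clusterin and 37.0 in control. Its deposited position overlaps that of KRT6C (listed at 0) by 2459 bases on the opposite strand. TMEM99 stood at 1.59 RPKM with clusterin and 1.44 in control. Its deposited position overlaps that of KRT10 by 3527 bases on the opposite strand. Whether counting used the strand is not known. Of 93 keratin-associated protein genes in the whole table, 92 were listed at 0, and KRTAP5-1 had 3 reads with clusterin and 5 in control.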
